A study of Mus musculus with 4 samples.

Results

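The Vcam1 Lpl C1q-high tumour macrophages were 710 of 8677 kept cells (8.18%) from the CD45-selected infiltrate of B16-F10 melanomas, and 18.1% of the 3921 cells of the monocyte and macrophage lineage. B16-F10 is a pigmented melanoma line of C57BL/6 mice. The cells were chosen by UMIs, that is, by transcript molecules counted through unique molecular identifiers. A member had at least 1 UMI of Csf1r, at least 4 of Vcam1 and Lpl together, and at least 20 of C1qa, C1qb and C1qc together. It also had fewer than 20 UMIs of Arg1, Spp1 and Mmp12, fewer than 3 of Folr2 and Cbr2, fewer than 3 of Cd300e and Lipg, at most 1 of Cd3d, Cd3e and Cd3g, and fewer than 10 of Mlana and Dct. These gates were set on the measured values of these cells, so the levels of the gated genes describe the rule and were not tested.

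The groups were tumours of Adar1-null B16-F10 cells, with 2 libraries called S1 and S2, and tumours of control B16-F10 cells, with 2 libraries called S3 and S4. Adar1, the product of Adar, converts adenosines within double-stranded RNA to inosines. The deletion was carried by the implanted tumour line and not, per the labels, by the host. All 4 libraries came from C57BL/6 hosts implanted with tumour cells in matrigel 14 days earlier. The labels do not say whether each tumour line was 1 clone, and they give neither the age nor the sex of the hosts. The study set the infiltrate of the Adar1-null tumours against that of the controls. Macrophages of an Adar1-null tumour are therefore host cells beside tumour cells without Adar1, and Adar reads in them are no check of the deletion. The series' design text counts 2 tumours of each kind, but whether they grew in separate animals is not said, and the spread behind each p-value is that of these libraries, which may be technical.

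C1q is the recognition part of the classical complement pathway, and macrophages that make it in quantity also bind and clear dying cells. Lipoprotein lipase, the product of Lpl, frees fatty acids from the triglycerides of lipoproteins. Vcam1 encodes an adhesion molecule that holds leukocytes carrying alpha-4 integrins. Monocytes that enter a tumour switch on C1q genes and adhesion and lipid genes as they lose monocyte transcripts such as Ly6c2 and Ccr2.

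Control library S4 stood apart from the other libraries in these cells, and this bears on every comparison of the groups. Apoe, which encodes a lipid carrier of macrophages, had 2223 and 686 CPM (a gene's UMIs relative to all UMIs of the summed cells) in Adar1-null members, against 1483 and 13336 CPM in control members. The value of S4 was far above the others. T cells showed the same order at lower levels, with 207 and 38.8 CPM of Apoe in Adar1-null libraries, against 87.8 and 503 CPM in control libraries. Summed over the 6 erythroid markers, members had 1.42 and 0.716 CPM in Adar1-null libraries, against 4.55 and 440 CPM in control libraries. UMIs of Hbb-bs, a beta-globin gene, were found in 49 of 151 members of S4, but 1 member held 404 of the 468. Without that member Hbb-bs stood at 41.8 CPM in S4, against 38.3 CPM in T cells of S4. Whether free RNA or red cells gave these UMIs was not tested.

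The kept cells of the series had medians of 7694 to 8881 UMIs per library, and the members had more. Median UMIs per member were 9812 and 9597 in the Adar1-null libraries, against 10718 and 9523 in the controls. Over all libraries the median was 9880.5 UMIs, with a range of 3961 to 36314. A gate on raw UMIs passes deep cells more readily. A total of 38 barcode sequences occurred in 2 libraries, among them those of 7 members, and 2 members had a doublet score above 0.1.

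The markers given for this class were present in it, and so were the macrophage genes Adgre1 and Cd68. Lpl had 1263 and 1256 CPM in Adar1-null members, against 1268 and 717 CPM in control members. Vcam1 had 216 and 100 CPM in Adar1-null members, against 157 and 408 CPM in control members. S4 had the lowest Lpl and the highest Vcam1 level. C1qc had 4077 and 4547 CPM in Adar1-null members, against 3930 and 4682 CPM in control members, and the groups overlapped. Adgre1, which encodes the macrophage protein F4/80, had 294 and 287 CPM in Adar1-null members, against 246 and 268 CPM in control members. Cd68, a lysosomal glycoprotein gene, had 798 and 980 CPM in Adar1-null members, against 764 and 911 CPM in control members.

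Gatm, Hebp1 and Nr1h3 were not gated, although they had been chosen as markers on these cells. Gatm encodes the enzyme of the first step of creatine synthesis, Hebp1 a haem-binding protein, and Nr1h3 the nuclear receptor LXR alpha, which senses oxysterols. Gatm had 148 and 83.1 CPM in Adar1-null members, against 110 and 143 CPM in control members. Hebp1 had 86.7 and 50.1 CPM in Adar1-null members, against 57.6 and 86.4 CPM in control members. Both genes were lowest in S2, and the groups overlapped. Nr1h3 had 149 and 179 CPM in Adar1-null members, against 112 and 80.6 CPM in control members, so here the groups did not overlap. With every cell thinned to 3961 UMIs, Gatm was detected in 35.1% of members, against 2.79% of 1326 T cells. Hebp1 was detected in 21.3% of thinned members, against 0.453% of thinned T cells. Nr1h3 was detected in 35.2% of thinned members, against 1.06% of thinned T cells. The T cells, which should lack these transcripts, had a median of 8704 UMIs before thinning. Without thinning the shares in members were 56.6% for Gatm, 43.0% for Hebp1 and 57.2% for Nr1h3.

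In Gatm and Hebp1 the class lay above each of 3 other macrophage classes in all 4 libraries. These were C1q-high Vcam1-Lpl-low macrophages, which passed every gate but that on Vcam1 and Lpl (536 cells), Arg1 Spp1 Mmp12-high macrophages (535 cells) and Folr2 Cbr2-high macrophages (1241 cells). All were shallower than the members, with medians of 6757, 8945 and 7546 UMIs in that order. Gatm averaged 121 ± 30.5 CPM in members, against 85.6 ± 30.1 CPM in C1q-high Vcam1-Lpl-low, 77.8 ± 15.7 CPM in Arg1 Spp1 Mmp12-high and 84.3 ± 28.8 CPM in Folr2 Cbr2-high macrophages (SD, n = 4 libraries). Hebp1 averaged 70.2 ± 19.1 CPM in members, against 30.8 ± 19.4, 43.9 ± 19.2 and 49.6 ± 14.5 CPM in the same 3 classes (SD, n = 4). The intervals of 1 SD overlap for Gatm with all 3 classes and for Hebp1 with the Arg1 and Folr2 classes, and the order rests on the paired values within each library. Nr1h3 was higher in members than in the Arg1 and Folr2 classes in 4 of 4 libraries, but in S1 it was level with the C1q-high Vcam1-Lpl-low class, at 149 CPM in each. Monocytes, gated on Ly6c2 and Chil3 with low C1q (373 cells, median 5313 UMIs), had means of 47.5 CPM for Gatm, 3.70 CPM for Hebp1 and 29.0 CPM for Nr1h3.

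**Figure D1:**
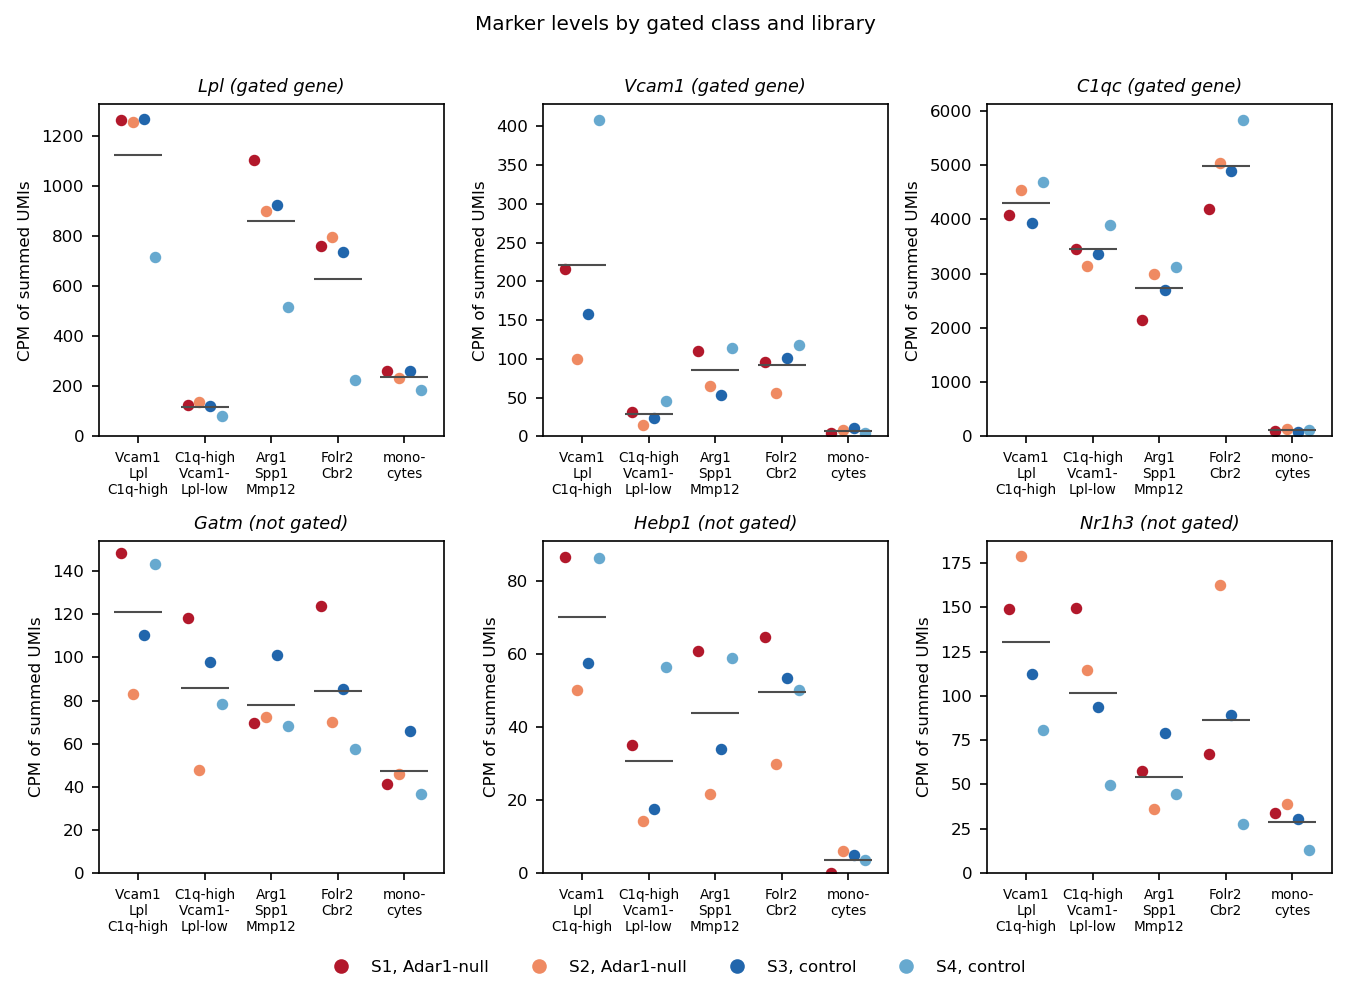
Levels of the 6 class markers (CPM of UMIs summed per library, vertical axes from 0) in 5 gated classes, with 1 point per library and a line at the mean. Lpl, Vcam1 and C1qc were gated, while Gatm and Hebp1 were not and lay above the other 3 macrophage classes in each library.

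Lpl and not Vcam1 carried most cells over the gate. Among the 710 members, 317 had no Vcam1 UMI and 22 had no Lpl UMI. The members without Vcam1 were 82 and 87 in Adar1-null libraries, against 115 and 33 in control libraries. Lpl reached 4 UMIs on its own in 87.2% of members and Vcam1 did so in 23.9%. The 22 members without Lpl were 1 and 0 in Adar1-null libraries, against 2 and 19 in control libraries, so S4 held most of them. At the edge of this gate, 68 members had a sum of 4 UMIs and 79 cells just outside had a sum of 3. The members at the edge had 102 CPM of Gatm, 49.0 CPM of Hebp1, 105 CPM of Nr1h3 and 175 CPM of Ly6c2. The cells just outside had 74.3 CPM of Gatm, 39.3 CPM of Hebp1, 112 CPM of Nr1h3 and 223 CPM of Ly6c2. The 2 sets are close in these genes, and the gate cuts through a continuous range.

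Within the class, members with UMIs of both Vcam1 and Lpl had less monocyte RNA than members without Vcam1. The first set held 121 and 46 cells in Adar1-null libraries, against 105 and 99 in control libraries. Ly6c2, a marker of inflammatory monocytes, had 30.8, 84.0, 21.2 and 21.3 CPM in S1 to S4 in members with both genes, against 200, 280, 126 and 81.3 CPM in members without Vcam1. Ccr2, the chemokine receptor by which monocytes leave the bone marrow, had 30.04, 77.0, 42.4 and 15.5 CPM with both genes, against 152, 132, 166 and 95.3 CPM without Vcam1. Each of these genes was lower in the double-positive members of every library. Median depth was 10881 UMIs with both genes, against 8935 UMIs without Vcam1, and its part in these differences was not tested.

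Gatm, Hebp1 and Nr1h3 ran the other way. Gatm had 183, 110, 130 and 162 CPM in S1 to S4 with both genes, against 82.9, 64.2, 88.8 and 118 CPM without Vcam1. Hebp1 had 105, 68.2, 74.99 and 90.03 CPM with both genes, against 54.4, 37.6, 37.1 and 42.0 CPM without Vcam1. Cadm1, which encodes a cell adhesion molecule of the immunoglobulin family, had 187, 154, 190 and 110 CPM with both genes, against 72.1, 81.2, 90.3 and 84.1 CPM without Vcam1. All 3 were higher in the double-positive members of each library. Mertk, a receptor for the uptake of dying cells, had 25.6, 34.98, 27.3 and 40.7 CPM with both genes, against 8.16, 16.97, 13.9 and 16.8 CPM without Vcam1. Ccl8, a monocyte-attracting chemokine gene, had 3417, 5158, 3774 and 3144 CPM with both genes, against 1886, 3285, 2129 and 689 CPM without Vcam1.

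Antigen presentation genes varied widely between members of the same library. In thinned cells, the sum of H2-Aa, H2-Ab1, H2-Eb1 and Cd74, the core of MHC class II presentation, had a median of 33 UMIs, with a 10th percentile of 3 and a 90th percentile of 142. Its median per library was 23 and 58 UMIs in Adar1-null members, against 41 and 19 UMIs in control members. S2 was highest and S4 lowest, and the groups overlapped. Cells with at least 2 UMIs of Mki67 and Top2a, genes of dividing cells, were 24.5% and 7.52% of Adar1-null members, against 23.4% and 22.5% of control members. S2 alone had few such cells.

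The nearest relatives of the class were the C1q-high Vcam1-Lpl-low macrophages, which held 139 and 142 cells in Adar1-null libraries, against 110 and 145 in control libraries. They were shallower, with a median of 6757 UMIs. The contrast is a description with no test, since the rule separates the classes. Of 2673 genes outside the gates with a mean of at least 50 CPM in either class, 668 (25.0%) were higher in members in 4 of 4 libraries and 393 (14.7%) were lower in 4 of 4. Only 2 genes were higher by over 1 log2 unit in all 4 libraries and 9 were lower by that much. The ratios below are log2 of CPM + 5, members over the other class, as medians over the 4 libraries, and their median over the 2673 genes was 0.04.

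Monocyte genes formed the clearest group of lower genes. Of 13 genes of the monocyte-origin list at or above 50 CPM, 12 were lower in members in 4 of 4 libraries and none was higher, with a median log2 ratio of -1.17. Ly6c2 had 89.6, 200, 72.8 and 32.9 CPM in members of S1 to S4, against 327, 743, 223 and 132 CPM in the C1q-high Vcam1-Lpl-low class (log2 ratio -1.83). Ccr2 had 73.0, 110, 103 and 34.2 CPM in members, against 312, 357, 276 and 174 CPM in the other class (-1.84). Il1b, the inflammatory cytokine gene, had 128, 367, 144 and 65.1 CPM in members, against 964, 1245, 744 and 207 CPM in the other class (-2.04). Ifitm1, an interferon-inducible membrane protein gene, had the lowest ratio of all, at -2.97. The other genes with the lowest ratios were Plac8, Ly6i, Thbs1, Chil3, Lsp1, Tmem176a, Napsa and Ltb4r1, at -1.93 to -1.34.

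Some antigen presentation genes and most immediate-early genes were also lower in members, against 14.7% of all 2673 genes lower in 4 of 4 libraries. MHC class I genes were lower by this count in 4 of 15 cases (median log2 ratio -0.24). Of 10 MHC class II genes, 5 were lower in 4 of 4 libraries (-0.49). H2-Ab1, a class II chain gene, had 2928, 4068, 3668 and 2144 CPM in members, against 7238, 8023, 7212 and 2447 CPM in the other class, so the classes came close only in S4. Of 17 genes of the immediate-early and dissociation list, which includes Fos and Jun, 13 were lower in 4 of 4 libraries (-0.52). Of 27 type I interferon-stimulated genes, 10 were lower in 4 of 4 libraries and none was higher (-0.38). Macrophage identity genes, such as Lyz2 and Tyrobp, were lower in 4 of 4 libraries in 7 of 15 cases and higher in 0 (-0.18). Macrophage transcription factor genes were lower in 10 of 20 cases and higher in 2 by the same count (-0.23).

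Haem, creatine and lysosome genes lay on the other side by smaller margins, and lipid genes on both sides. Of 8 haem and iron genes, 5 were higher in members in 4 of 4 libraries (median log2 ratio 0.38), and so were 4 of 5 creatine and arginine genes (0.53), 9 of 19 cathepsin and lysosome genes (0.18) and 5 of 13 lipid uptake genes (0.20), against 25.0% of all 2673 genes. Gatm is among the creatine and arginine genes and had been chosen as a marker on these cells, so that count is not independent of the choice. Of 7 genes of the LXR and cholesterol export list, 0 were higher and 3 lower in 4 of 4 libraries (-0.27). Cadm1 had the highest ratio, with 146, 111, 140 and 98.7 CPM in members, against 35.01, 30.5, 40.7 and 38.2 CPM in the other class (1.69). Hgsnat, which encodes a lysosomal enzyme of heparan sulfate breakdown, had 156, 98.8, 159 and 290 CPM in members, against 59.7, 45.7, 38.5 and 170 CPM in the other class (1.18). Pparg, the gene of a fatty-acid-sensing nuclear receptor, had 71.6, 88.8, 55.4 and 41.3 CPM in members, against 37.1, 51.8, 30.8 and 21.99 CPM in the other class. Itsn1 and Cela1 were higher in members than in this class (1.11 and 1.09) but had their highest mean in Folr2 Cbr2-high macrophages, at 88.6 CPM for Itsn1 and 153 CPM for Cela1.

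Of 11 cell cycle genes, 10 were higher in members in 4 of 4 libraries (median log2 ratio 0.88), against 25.0% of all 2673 genes. This group moved when the gates were applied to thinned cells. Tk1, a gene of thymidine salvage, had 70.6, 40.8, 59.2 and 56.7 CPM in members, against 14.4, 11.2, 36.3 and 21.99 CPM in the other class (1.35). With cells thinned to 3961 UMIs before gating, the ratio of Tk1 was 0.55 and that of Cdk1, the mitotic kinase gene, was 0.73 against 1.26. Only the gates used the thinned counts, so other cells were selected, and the full UMIs of those cells were summed. The ratios are therefore not at equal depth. With the same gating Cadm1 kept 1.22, Hebp1 0.99, Ly6c2 -1.70 and Ccr2 -1.37, while Gdf15 had -0.03, against 1.08 with the main gates.

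**Figure D2:**
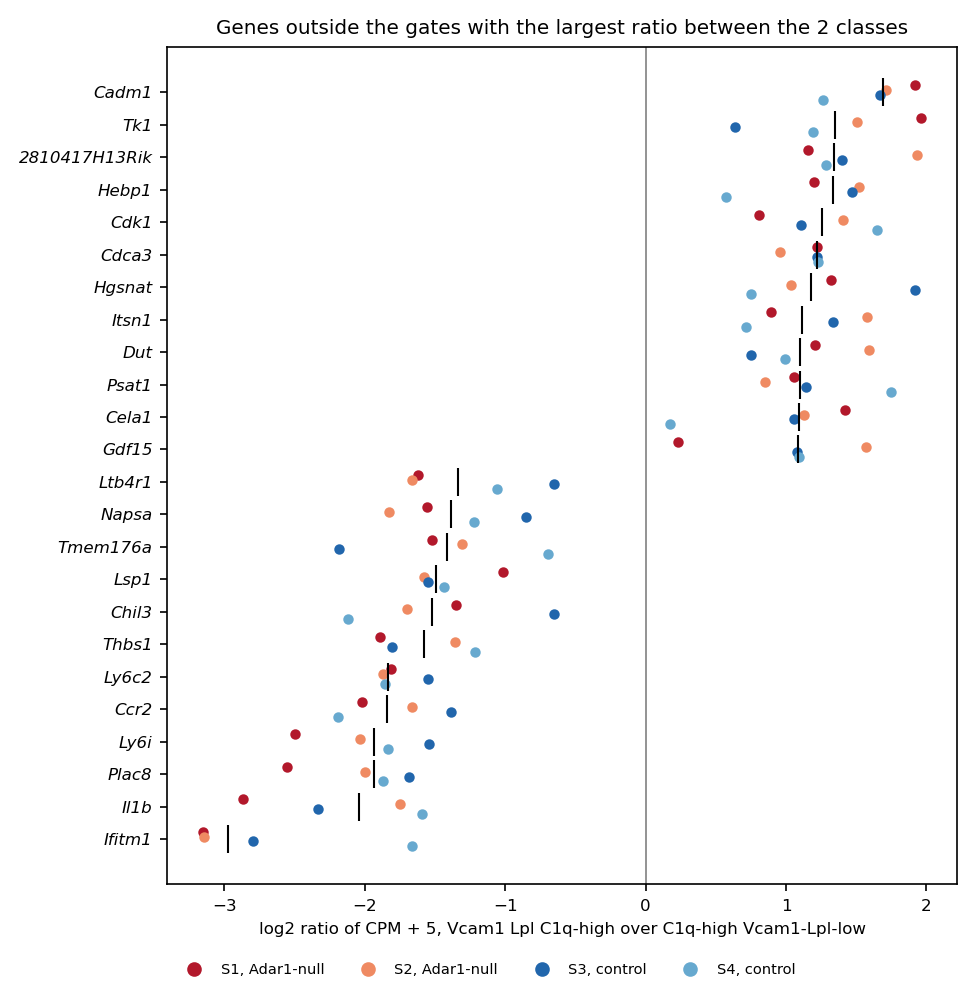
Log2 ratio of CPM + 5 (horizontal axis), Vcam1 Lpl C1q-high over C1q-high Vcam1-Lpl-low macrophages, for the 12 highest and 12 lowest genes outside the gates, with 1 point per library and a bar at the median. Cadm1 leads the higher genes at 1.69 and Ifitm1 the lower ones at -2.97.

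The share of the class did not differ between Adar1-null and control tumours beyond the spread of the libraries. It was 10.3% (95% exact binomial interval 9.04 to 11.8) and 6.796% (5.72 to 8.003) of kept cells in Adar1-null libraries, against 11.3% (9.95 to 12.8) and 5.42% (4.61 to 6.33) in control libraries. The libraries of a group differed more than the groups did, and the groups overlapped. The means were 8.57 ± 2.51% in Adar1-null and 8.37 ± 4.17% in control libraries (SD, n = 2 each; exact two-sided permutation p = 1.0). The smallest p that 2 libraries against 2 allow is 0.333. The intervals cover counting error only, and the shares are those of a selected cell suspension.

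Among cells of the monocyte and macrophage lineage, the share was 26.6% and 19.9% in Adar1-null libraries, against 24.3% and 9.61% in control libraries. S4 was low and the other 3 libraries lay close together. The means were 23.3 ± 4.73% in Adar1-null and 16.9 ± 10.4% in control libraries (SD, n = 2 each; exact two-sided permutation p = 0.667). Without S4 the log2 ratio of this share was -0.06, against 0.46 with it. After thinning to 3961 UMIs, the class made up 16.0% and 14.3% of the lineage in Adar1-null libraries, against 18.0% and 7.95% in control libraries. Folr2 Cbr2-high macrophages numbered 785 cells in S4 and 245 in S3, which enters the same denominator.

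No gene passed the test between Adar1-null and control members. Of 8300 genes tested on UMIs summed per library, 0 were higher and 0 lower (0% each) at an adjusted p of 0.05 (edgeR quasi-likelihood test with Benjamini-Hochberg adjustment). At an unadjusted p of 0.05, 104 genes (1.25%) were higher and 122 (1.47%) lower. Both Adar1-null libraries lay above both controls for 1119 genes (13.5%) and below them for 1431 (17.2%). DESeq2 called 2 lower genes, Marco and Gdf15. The count depended on single libraries, with 12 higher and 3 lower genes without S1, 5 higher and 25 lower without S3, 2 higher and 1 lower without S4, and 0 in either direction without S2. In simulated libraries of this size and depth, changes of 1 log2 unit were recovered for 16% of altered genes and changes of 2 log2 units for 93%. The values that follow are the genes with the smallest p, given as levels and not as calls.

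Marco, which encodes a scavenger receptor of macrophages, had the smallest p. It lies at chr1:120474538-120505024 on the minus strand (GRCm38). Marco had 3.32 and 1.43 CPM in Adar1-null members, against 76.2 and 36.8 CPM in control members. Both Adar1-null libraries were near 0 and both controls far above them (log2 change -4.46 ± 0.55 SE, edgeR adjusted p = 0.622; DESeq2 adjusted p = 7.43e-07). The level came from few cells. UMIs of Marco were found in 3 and 2 Adar1-null members (1.47% and 1.504%), against 18 and 10 control members (8.11% and 6.62%). The 10 members with the most Marco UMIs held 88.1% of those in S3, while in S4 only 10 members held any. A single member held 38 of the 201 Marco UMIs in S3 and 23 of the 57 in S4. T cells had 0.915 and 0.244 CPM of Marco in Adar1-null libraries, against 1.58 and 1.06 CPM in control libraries.

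Marco was higher in Folr2 Cbr2-high macrophages than in members of each library. Folr2 Cbr2-high macrophages had 55.2 and 33.8 CPM in Adar1-null libraries, against 86.4 and 153 CPM in control libraries. C1q-high Vcam1-Lpl-low macrophages had 2.06 and 0 CPM in Adar1-null libraries, against 12.1 and 43.0 CPM in control libraries. Arg1 Spp1 Mmp12-high macrophages had 6.41 and 0 CPM in Adar1-null libraries, against 4.87 and 116 CPM in control libraries. In this last class S3 lay below S1. Marco passed the edgeR test in members without S3 (adjusted p = 4.48e-05) and without S4 (5.89e-14), and did not pass without S1 (0.351) or without S2 (0.999). With all 4 libraries it passed with at least 6 UMIs of Vcam1 and Lpl (edgeR adjusted p = 0.0145), with equal numbers of members per library (0.0213) and with no filter on low counts (2.04e-30).

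The other genes with the smallest p on the lower side included stress, metal and lipid genes. Gdf15, a stress-induced secreted factor gene, had 73.5 and 55.1 CPM in Adar1-null members, against 138 and 254 CPM in control members (log2 change -1.56 ± 0.30, edgeR adjusted p = 0.951; DESeq2 adjusted p = 0.0245). Mgst1, a microsomal glutathione transferase gene, had 65.9 and 58.0 CPM in Adar1-null members, against 106 and 173 CPM in control members. Mt2, a metallothionein gene, had 47.4 and 46.5 CPM in Adar1-null members, against 77.0 and 104 CPM in control members. In all 3 genes the Adar1-null libraries lay below both controls, and S4 was highest. Hilpda, a lipid droplet gene induced by hypoxia, had 110 and 126 CPM in Adar1-null members, against 163 and 295 CPM in control members. Egr1, an immediate-early transcription factor gene, had 86.3 and 83.1 CPM in Adar1-null members, against 143 and 153 CPM in control members. Rhov and Smpdl3a were also in this set, at log2 changes of -2.18 ± 0.45 and -0.82 ± 0.19, and Rhov rested on 4 to 41 UMIs per library.

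On the higher side, Hspa1a had the smallest p. This heat shock protein gene had 117 and 143 CPM in Adar1-null members, against 42.5 and 65.1 CPM in control members (log2 change 1.31 ± 0.23, edgeR adjusted p = 0.689). Its near-identical copy Hspa1b had 16.1 and 7.16 CPM in Adar1-null members, against 1.52 and 2.58 CPM in control members. The Hspa1b values rested on 34 and 10 UMIs in Adar1-null members, against 4 and 4 UMIs in control members. The Adar1-null libraries were above both controls in each gene, and the split of reads between such copies is uncertain. The same uncertainty holds for Bcl2a1d and Bcl2a1a, genes of a survival protein family. Bcl2a1d had 125 and 173 CPM in Adar1-null members, against 80.0 and 66.4 CPM in control members. Bcl2a1a had 156 and 200 CPM in Adar1-null members, against 109 and 108 CPM in control members. Rpl23a, a ribosomal protein gene with many processed copies, had 78.7 and 88.8 CPM in Adar1-null members, against 44.4 and 39.98 CPM in control members. Ccdc85b and Gm26917 were also in this set, at log2 changes of 1.26 ± 0.32 and 0.80 ± 0.21.

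Heat shock and immediate-early genes are both known to respond to tissue dissociation. In the list of 18 such genes, 3 were higher in both Adar1-null libraries than in both controls and 8 were lower, against 13.5% and 17.2% of all genes, with a median log2 change of -0.25. The higher count is near that background. The 3 were Hspa1a, Hspa1b and Hsp90aa1, and the 8 included Fos, Fosb, Jun and Egr1. Fosb had 116 and 110 CPM in Adar1-null members, against 141 and 231 CPM in control members. The part of digestion and handling in these values was not tested.

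Among genes of monocyte-attracting chemokines, Ccl12 and Ccl7 were higher in both Adar1-null libraries than in both controls. Ccl12 had 1361 and 1682 CPM in Adar1-null members, against 886 and 1029 CPM in control members (log2 change 0.69 ± 0.18, edgeR adjusted p = 1.0). Ccl7 had 3213 and 4279 CPM in Adar1-null members, against 2821 and 2630 CPM in control members (0.48 ± 0.19). Neither passed, and their libraries did not overlap. Ccl2, the ligand of Ccr2, had 2841 and 2900 CPM in Adar1-null members, against 2456 and 3043 CPM in control members, which overlapped. Of 16 chemokine genes tested, 5 were higher in both Adar1-null libraries and 3 were lower, against 13.5% and 17.2% of all genes, so the lower count is near the background. Their median log2 change was 0.07. Cxcl9, an interferon-gamma-induced chemokine gene, was one of the 5, at 982 and 990 CPM in Adar1-null members, against 875 and 544 CPM in control members. Some separations rested on 1 cell. Without the member of S1 that held the most UMIs of the gene, Ccl5 and Ccl9 were no longer higher in both Adar1-null libraries. Ccl6 was no longer lower without the top member of S4. Ccl12, Ccl7 and Cxcl9 kept their separation.

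Nr1h3 and Pparg, which encode lipid-sensing nuclear receptors, were higher in both Adar1-null libraries than in both controls without passing the test, and Rxra was lower. Nr1h3, whose levels are given above, had a log2 change of 0.77 ± 0.21 (edgeR adjusted p = 1.0). Pparg had 71.6 and 88.8 CPM in Adar1-null members, against 55.4 and 41.3 CPM in control members (0.73 ± 0.22, edgeR adjusted p = 1.0). Rxra, the gene of the receptor that pairs with both, had 10.9 and 10.7 CPM in Adar1-null members, against 15.2 and 19.3 CPM in control members (-0.63 ± 0.31). Of 14 genes of the LXR and cholesterol export list, 5 had a positive log2 change and the median was -0.20. Of these, 3 were higher in both Adar1-null libraries and 2 lower, against 13.5% and 17.2% of all genes. Abcg1, a sterol exporter gene under LXR control, had 104 and 117 CPM in Adar1-null members, against 81.5 and 103 CPM in control members. Without the member of S1 that held the most Abcg1 UMIs, S1 had 100.1 CPM, below S4. Without S4 the median of the list was 0.04. Of the 25 macrophage transcription factor genes tested, 3 were higher in both Adar1-null libraries, which is near the 13.5% of all genes, and 9 were lower, against 17.2%.

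Cholesterol synthesis genes mostly lay on the higher side. Of 15 tested, 13 had a positive log2 change (median 0.30), and 9 were higher in both Adar1-null libraries than in both controls, with 1 lower, against 13.5% and 17.2% of all genes. Fdps, of the isoprenoid branch, had 34.1 and 55.8 CPM in Adar1-null members, against 25.8 and 21.9 CPM in control members (0.89 ± 0.28). Idi1, of the same branch, had 11.8 and 17.9 CPM in Adar1-null members, against 7.21 and 7.09 CPM in control members (1.03 ± 0.37). None passed the test. No gene of the list had a mean of 50 CPM or more, and Idi1 rested on 11 to 25 UMIs per library. Without the member of S2 that held the most Msmo1 UMIs, Msmo1 lost the separation of the groups. Insig1 lost it without the top member of S1, while Fdps, Idi1 and Sqle kept it without any 1 such member. The median of the list stayed between 0.30 and 0.45 when each library was left out in turn. Of 18 lipid uptake and storage genes, 7 had a positive change (median -0.10), and Gpnmb, a gene of lipid-laden macrophages, had 70.6 and 48.7 CPM in Adar1-null members, against 83.1 and 162 CPM in control members. Plin2, a lipid droplet coat gene, had 435 and 488 CPM in Adar1-null members, against 422 and 687 CPM in control members, which overlapped.

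**Figure D3:**
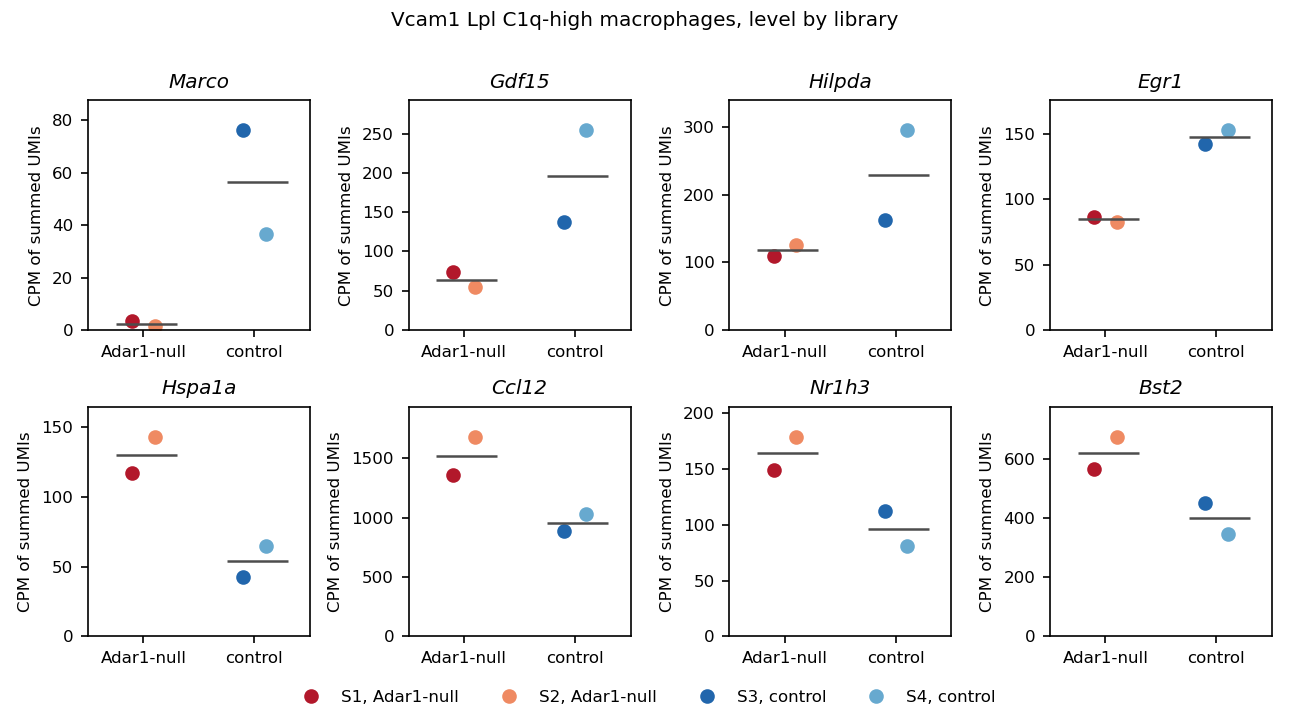
Levels of 8 genes (CPM of UMIs summed per library, vertical axes from 0) in Vcam1 Lpl C1q-high macrophages, with 1 point per library and a line at the group mean. Marco, Gdf15, Hilpda and Egr1 are lower, and Hspa1a, Ccl12, Nr1h3 and Bst2 higher, in both Adar1-null libraries, and none passed the edgeR test.

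Type I interferon-stimulated genes mostly had positive changes, with library S2 highest. Of 50 genes tested, 49 had log2 changes above 0, and their median was 0.50, against a median of -0.0037 over all 8300 genes. Of the 50, 15 were higher in both Adar1-null libraries than in both controls, 0 were lower, against 13.5% and 17.2% of all genes, and 0 passed the test. Per library, the median of the genes around their own mean was -0.14 and 0.58 in Adar1-null libraries, against -0.07 and -0.34 in control libraries, on the log2 scale. S2 was high, S4 low, and S1 was no higher than S3. Without S2 only 31 of the 50 were positive and the median was 0.05. Without S1 all 50 were positive (median 0.80) and 9 passed the edgeR test.

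Bst2, which encodes the restriction factor tetherin, had 566 and 677 CPM in Adar1-null members, against 453 and 348 CPM in control members (log2 change 0.65 ± 0.20, edgeR adjusted p = 1.0). Oas1g, of the 2-5A synthetase family, had 12.8 and 31.5 CPM in Adar1-null members, against 7.59 and 5.80 CPM in control members (1.64 ± 0.48). The Oas1g values rested on 9 to 44 UMIs per library. Eif2ak2, which encodes the RNA-sensing kinase PKR, had 35.5 and 37.9 CPM in Adar1-null members, against 27.3 and 21.9 CPM in control members (0.57 ± 0.23). Their Adar1-null libraries lay above both controls. Isg15, the gene of a ubiquitin-like modifier, had 243 and 707 CPM in Adar1-null members, against 270 and 307 CPM in control members, so S1 was the lowest. Rsad2, the viperin gene, was the only one of the 50 with a negative change, at 80.1 and 185 CPM in Adar1-null members, against 133 and 179 CPM in control members. Adar itself, an interferon-stimulated gene, had 21.3 and 17.2 CPM in Adar1-null members, against 14.8 and 11.6 CPM in control members (0.55 ± 0.30). With gates set on thinned cells and full UMIs summed, its log2 change was -0.15.

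The promoters of Bst2, Oas1g and Eif2ak2 are shown because they hold the letters of the interferon-stimulated response element, and they were picked for that among the genes whose groups did not overlap. Adar and Isg20, whose groups did not overlap either, had no match in their promoters. Each runs from 250 bases before to 50 bases after the start of the gene (RefSeq, GRCm38.p6), on the minus strand, at chr8:71537423-71537722 for Bst2, chr5:120887564-120887863 for Oas1g and chr17:78882523-78882822 for Eif2ak2. Capitals mark matches to the motif GAAA, any 2 bases, then GAAA, the repeat bound by IRF factors. In Bst2 and Oas1g, 2 matches overlap.
Bst2: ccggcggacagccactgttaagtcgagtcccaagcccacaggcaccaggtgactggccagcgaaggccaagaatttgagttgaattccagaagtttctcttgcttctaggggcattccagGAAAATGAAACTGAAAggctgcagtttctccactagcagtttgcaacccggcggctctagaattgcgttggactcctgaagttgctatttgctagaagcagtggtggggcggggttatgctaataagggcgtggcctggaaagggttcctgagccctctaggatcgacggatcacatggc
Oas1g: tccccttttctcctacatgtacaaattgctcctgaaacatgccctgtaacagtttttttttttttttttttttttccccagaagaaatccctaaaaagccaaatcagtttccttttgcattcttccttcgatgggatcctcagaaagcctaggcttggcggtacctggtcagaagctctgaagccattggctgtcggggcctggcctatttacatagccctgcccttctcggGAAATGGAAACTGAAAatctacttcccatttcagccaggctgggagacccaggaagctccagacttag
Eif2ak2: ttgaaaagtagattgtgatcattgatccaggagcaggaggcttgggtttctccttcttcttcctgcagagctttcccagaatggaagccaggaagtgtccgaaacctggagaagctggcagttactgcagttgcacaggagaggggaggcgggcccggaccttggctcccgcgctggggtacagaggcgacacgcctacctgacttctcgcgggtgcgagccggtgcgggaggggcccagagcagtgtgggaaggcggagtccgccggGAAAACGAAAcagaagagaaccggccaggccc
The matches start 130 and 124 bases before the gene start in Bst2, 18 and 12 bases before it in Oas1g, and 19 bases after it in Eif2ak2. Searched on both strands, the motif was found in 3.44% of 32851 RefSeq promoters of this length, in 4.26% of the 6430 tested genes with a promoter, and in 19 of the 41 genes of the list with one (46.3%). A match is a description of the sequence and says nothing of binding in these cells.

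Interferon-gamma and antigen presentation lists followed the same libraries. Of 28 interferon-gamma-induced genes, 24 had a positive log2 change (median 0.29), with per-library medians of -0.22 and 0.48 in Adar1-null libraries, against 0.20 and -0.38 in control libraries. S3 lay above S1, so the groups overlapped. Of 19 MHC class I genes, 18 were positive (median 0.28), none separated the groups, and H2-K1 had 1424 and 2051 CPM in Adar1-null members, against 1591 and 1297 CPM in control members. Of 13 MHC class II genes, 10 were positive (median 0.23). The MHC class I and interferon-gamma medians turned negative without S2, at -0.02 and -0.18, and that of MHC class II without S4, at -0.04. The monocyte-origin list, with a median of 0.10 over 18 genes, was high in S2 as well, and Ly6c2 had 89.6 and 200 CPM in Adar1-null members, against 72.8 and 32.9 CPM in control members.

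**Figure D4:**
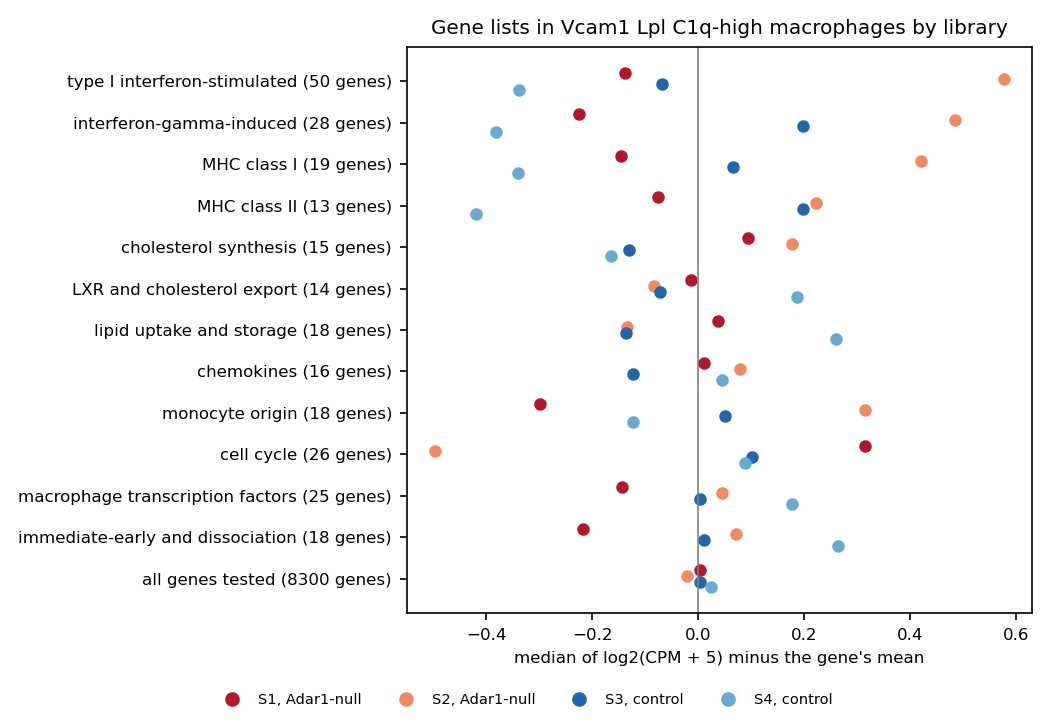
Median over each list of log2(CPM + 5) minus the gene's own mean over the 4 libraries (horizontal axis), in Vcam1 Lpl C1q-high macrophages, with 1 point per library. In the type I interferon list S2 stands at 0.58 and S1 at -0.14, against -0.07 for S3 and -0.34 for S4, while cholesterol synthesis has both Adar1-null libraries above both controls.

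Single genes of other lists had groups that did not overlap, without passing. Mgl2, a galactose-binding lectin gene of alternatively activated macrophages, had 54.0 and 65.2 CPM in Adar1-null members, against 26.2 and 9.03 CPM in control members (log2 change 1.67 ± 0.41). A single member of S2 held 62 of its 91 Mgl2 UMIs, and without that cell S2 had 21.1 CPM, below S3. Cd72, a gene of an inhibitory receptor known from B cells, had 257 and 278 CPM in Adar1-null members, against 189 and 149 CPM in control members (0.67 ± 0.18). The B cell markers summed to 27.0 and 32.9 CPM in Adar1-null members, against 15.5 and 28.4 CPM in control members, with Jchain and Pax5 at 0 throughout, and their part in the Cd72 level was not tested. Itgax, the gene of CD11c, had 43.1 and 37.2 CPM in Adar1-null members, against 26.2 and 22.6 CPM in control members (0.73 ± 0.23). Dendritic cell markers summed to 40.3 and 45.1 CPM in Adar1-null members, against 42.1 and 34.8 CPM in control members, with Itgae and Siglech at 0. Il1a, an alarmin gene, had 7.11 and 4.30 CPM in Adar1-null members, against 12.1 and 14.8 CPM in control members (-1.14 ± 0.38). The Il1a values rested on 6 to 32 UMIs per library.

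Markers of T cells, NK cells, dendritic cells, melanoma, fibroblasts and endothelium summed to less in members than in all kept cells of each library. B cell markers, whose member sums are given above, were higher in members of every library. Of those sums Cd79b alone gave 21.3, 27.9, 10.2 and 24.5 CPM in members of S1 to S4. No member held more than 6 UMIs of Cd79b. All kept cells had 10.1, 13.1, 12.03 and 16.9 CPM of B cell markers in S1 to S4. T cell markers summed to 22.8 and 20.8 CPM in Adar1-null members, against 20.5 and 16.1 CPM in control members. Melanoma markers, among which Gpnmb and Mitf are also macrophage genes, summed to 292 and 237 CPM in Adar1-null members, against 240 and 399 CPM in control members. Neutrophil markers summed to 26.5 and 48.7 CPM in Adar1-null members, against 25.4 and 63.2 CPM in control members, with Cxcr2 at 0. Of those sums Csf3r alone gave 24.2, 43.0, 19.7 and 16.1 CPM in members of S1 to S4. All kept cells had 13.1, 20.04, 15.8 and 127.5 CPM of neutrophil markers in S1 to S4, so members were lower only in S4. Fibroblast markers reached 37.9 CPM at most, with Lum, Pdgfra and Pdgfrb at 0, NK cell markers reached 10.0 CPM, and endothelial markers reached 65.9 CPM.

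Whether the genotype of the tumour went with a different change in this class than in its neighbours was tested by an interaction of class and genotype, with the library as a block. Against the C1q-high Vcam1-Lpl-low macrophages, 6 of 7861 genes passed with a higher change in members (0.0763%) and 0 with a lower one (edgeR quasi-likelihood test, Benjamini-Hochberg adjustment), while 421 (5.36%) had an unadjusted p under 0.05. DESeq2 called 0. The 6 genes were Igf1, Ccl8, Cxcl1, Gas6, Fth1 and Ccl9, which encode growth, chemokine, TAM receptor ligand and iron storage proteins. In each gene the log2 change was negative in the other class and closer to 0 or positive in members. Without S1, S2, S3 or S4 in turn, 13, 7, 80 and 11 genes passed.

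Igf1, the insulin-like growth factor gene, had 123 and 25.8 CPM in Adar1-null members, against 61.4 and 120 CPM in control members. In the other class it had 47.4 and 7.11 CPM in Adar1-null libraries, against 60.5 and 142 CPM in control libraries. These values of the other class rested on 7 to 148 UMIs per library. Members overlapped between the groups, and the other class was lower in both Adar1-null libraries (interaction 1.65 ± 0.29 SE, edgeR adjusted p = 0.00915; log2 change -0.21 ± 0.92 in members and -1.94 ± 0.98 in the other class). Ccl8 had 2900 and 4052 CPM in Adar1-null members, against 2971 and 2748 CPM in control members. In the other class Ccl8 had 1308 and 1676 CPM in Adar1-null libraries, against 1667 and 2106 CPM in control libraries (interaction 0.67 ± 0.13, edgeR adjusted p = 0.0279). The groups overlapped in both classes.

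Cxcl1, a neutrophil-attracting chemokine gene, had 38.9 and 15.8 CPM in Adar1-null members, against 42.9 and 40.6 CPM in control members. In the other class it had 11.3 and 8.12 CPM in Adar1-null libraries, against 45.1 and 88.0 CPM in control libraries (2.16 ± 0.43, edgeR adjusted p = 0.0279). Gas6, a bridge between dying cells and TAM receptors, had 38.9 and 7.16 CPM in Adar1-null members, against 12.5 and 50.9 CPM in control members. The other class had 29.9 and 4.06 CPM of Gas6 in Adar1-null libraries, against 18.7 and 165 CPM in control libraries (1.92 ± 0.39, edgeR adjusted p = 0.0279). In the other class Cxcl1 rested on 8 to 92 UMIs per library and Gas6 on 4 to 173. Among members, S2 held 22 UMIs of Cxcl1 and 10 of Gas6. Without the member of S3 or of S4 that held the most Cxcl1 UMIs, Cxcl1 no longer separated the groups in members. In both genes the other class was highest in S4. There it also had 2361 CPM of Sepp1, a gene of resident macrophages, against 266 to 549 CPM in the other libraries. S4 was also highest in Sepp1 among members, at 1330 CPM against 380 to 560 CPM, and among T cells, at 71.7 CPM against 17.6 to 43.6 CPM.

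Fth1, the ferritin heavy chain gene, had 33942 and 26157 CPM in Adar1-null members, against 28286 and 26038 CPM in control members. The other class had 26158 and 18605 CPM of Fth1 in Adar1-null libraries, against 25623 and 29572 CPM in control libraries (0.52 ± 0.10, edgeR adjusted p = 0.0279). Ccl9 had 647 and 670 CPM in Adar1-null members, against 617 and 645 CPM in control members. The other class had 543 and 620 CPM of Ccl9 in Adar1-null libraries, against 722 and 994 CPM in control libraries (0.67 ± 0.14, edgeR adjusted p = 0.0372). Of the 6 calls, Ccl8 and Fth1 were lost without S2 or without S4, Cxcl1 and Gas6 without S1 or without S4, Ccl9 without S1, S2 or S4, and Igf1 without S1.

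Against monocytes, 1 of 7803 genes passed with a higher change in members (0.0128%) and 0 with a lower one, while 334 (4.28%) had an unadjusted p under 0.05 and DESeq2 called 0. It was Ccl7, with the member levels given above. Monocytes had 1815 and 3379 CPM of Ccl7 in Adar1-null libraries, against 3565 and 3349 CPM in control libraries. S1 alone was low there (interaction 0.95 ± 0.16, edgeR adjusted p = 0.0390; log2 change 0.48 ± 0.19 in members and -0.43 ± 0.27 in monocytes). The call was lost without S1 or without S4, and without S1, S2, S3 or S4 in turn 8, 5, 32 and 3 genes passed.

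**Figure D5:**
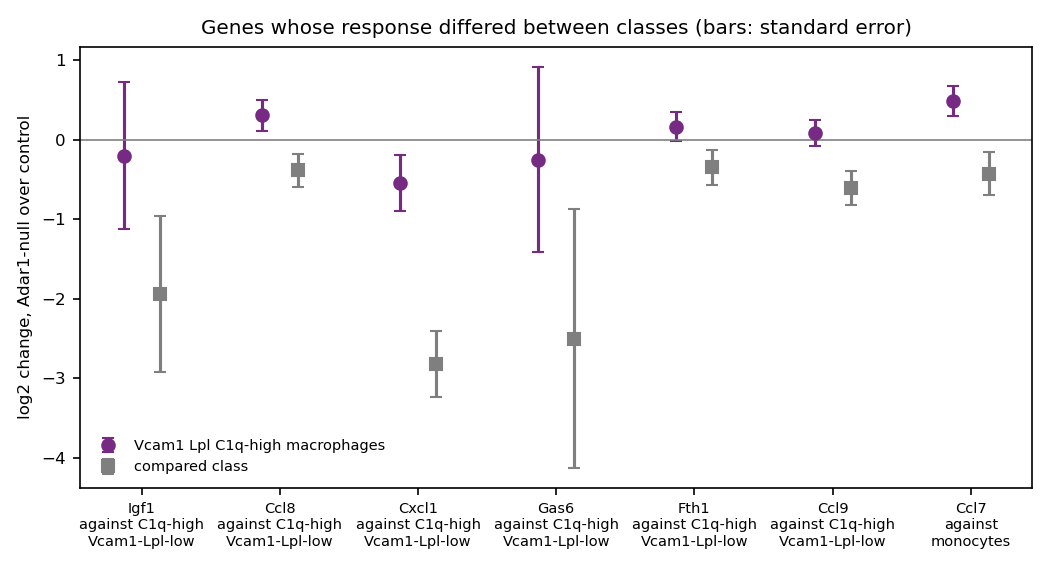
Log2 change of Adar1-null over control (vertical axis, bars of 1 SE) in Vcam1 Lpl C1q-high macrophages and in the compared class, for the 7 genes whose change differed between the classes at an edgeR adjusted p of 0.05. Igf1 changed by -0.21 in members and -1.94 in C1q-high Vcam1-Lpl-low macrophages, and Ccl7 by 0.48 in members and -0.43 in monocytes.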

How the data were processed

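Single CD45-selected cells were profiled with the 10x 3′ v2 kit. The authors deposited the UMI counts of all 4 libraries in 1 table, as whole numbers that had not been normalized. Cell Ranger, Seurat 2.2.0 and build mm10 are named in the submitters' processing notes. The role of each, the annotation and any earlier cell filter were not given in the sources used. The library was read from the barcode suffix, which names the group and carries no replicate number.

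Kept were 8677 of 8838 barcodes, those with 500 genes or more and no more than 10% of UMIs from mitochondrial genes. Scrublet (scanpy 1.11.5, expected rate 0.02) scored doublets, and 108 kept cells (1.25%) scored above 0.1, none of which was removed. No correction for free RNA was made. Lineage cells had a UMI of Csf1r, at most 1 of the Cd3 genes and fewer than 10 of Mlana and Dct.

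The UMI counts of each class were added up within each library, because cells of 1 library share their source. The sums went into edgeR 4.0.16 under R 4.3.3, with TMM normalization, filterByExpr, robust quasi-likelihood dispersions over all tested genes and Benjamini-Hochberg adjustment at 0.05. DESeq2 1.42.0 was an alternative. Interactions were fitted where each library held at least 50 cells of both classes. The script was tested on simulated data. Two-sided exact permutation tests compared shares, and intervals are exact (Clopper-Pearson) at 95%. Figures used matplotlib 3.10.9. Gene positions are from GENCODE vM21 and promoters from RefSeq.

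Members, markers, lists and tests were chosen with earlier results of these data known. Named genes were the class markers, the 12 highest and 12 lowest ratios at 50 CPM or more with 1 sign in 4 libraries, the 8 smallest p in each direction, up to 4 genes per list by p and 4 by level, and the interaction genes. Isg15, Rsad2 and Hsp90aa1 were chosen after their values were seen. A few genes that this rule names are not reported here.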

Additional observations from a re-analysis of the deposited data

Results flagged for a closer look

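Differences in the change with genotype between classes passed a test of the difference itself for 7 genes. Against C1q-high Vcam1-Lpl-low macrophages, the interaction (log2 change in Vcam1 Lpl C1q-high macrophages minus that in the other class) was 1.65 for Igf1, 0.67 for Ccl8, 2.16 for Cxcl1, 1.92 for Gas6, 0.52 for Fth1 and 0.67 for Ccl9. Against monocytes it was 0.95 for Ccl7. The 2 libraries of a group did not move together in several of them, since Igf1 and Gas6 in members were high in S1 and low in S2. With 2 libraries a group, no sample could be tested as an outlier.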

How the results depend on the processing

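No paired analysis was possible because the library names carry no replicate number. The interaction with Arg1 Spp1 Mmp12-high macrophages was not run, since S2 held 30 such cells. The log2 ratio of the share of kept cells, Adar1-null over control, was 0.03 and turned to -0.22 with thinned cells and to -0.013 with at least 6 UMIs of Vcam1 and Lpl, and it lay between -0.40 and 0.66 when each library was left out. That of the share of lineage cells lay between -0.063 and 1.28, negative without S4. Against 0 genes called in members, leaving out a library gave 0 to 12 higher genes (12 without S1, 0 without S2, 5 without S3, 2 without S4) and 0 to 25 lower genes (3 without S1, 0 without S2, 25 without S3, 1 without S4). No filter on low counts gave 10 higher and 18 lower genes, DESeq2 2 lower, and at least 6 UMIs of Vcam1 and Lpl, or equal cell numbers, 1 lower (Marco). Interaction calls against C1q-high Vcam1-Lpl-low macrophages numbered 20 with no filter, 0 with DESeq2 and 7 to 80 with a library left out, and against monocytes 6, 0 and 3 to 32. A lone library of a group was then assumed to vary like the others. Of 49 values of the 7 interaction genes under alternatives, 28 kept the call and 21 lost it, and none changed direction.

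List medians changed sign for 9 lists. With a library left out they ranged from -0.18 to 0.67 for interferon-gamma, -0.018 to 0.57 for MHC class I, -0.044 to 0.60 for MHC class II, -0.27 to 0.043 for LXR, -0.30 to 0.10 for lipid uptake, -0.044 to 0.21 for chemokines, -0.23 to 0.031 for transcription factors, -0.64 to 0.15 for cell cycle and -0.50 to 0.28 for monocyte origin. Chemokines had -0.040 with gates set on thinned cells and monocyte origin -0.10 with equal cell numbers. Gates set on thinned cells, with full UMIs summed, gave -0.076 for C3, -0.15 for Adar and -0.028 for the ratio of Gdf15 between classes. Of 541 values of 42 named genes under alternatives, 505 kept direction and side of the threshold, 34 came to pass it and 2 reversed. The cause of these shifts was not tested. With 2 libraries a group, changes of 1 log2 unit were mostly under the limit of detection.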
